A study of Mus musculus with 5 samples.

Results

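The pre-B-cell receptor and its proximal signalling were followed through 10 genes, taken as a fixed list of symbols: Vpreb1, Vpreb3, Igll1, Cd79a, Cd79b, Blnk, Syk, Lyn, Blk and Plcg2. They are 10 of the 21887 protein-coding genes against which the H3K27ac peaks were placed. H3K27ac is the acetylation of lysine 27 of histone H3, a mark of active promoters and enhancers. It was measured by ChIPmentation, a chromatin immunoprecipitation whose sequencing adapters are inserted by Tn5 transposase while the chromatin is bound. The cells were mouse bone marrow cells sorted as CD45.2+, lineage-, Sca1+ and Kit+ and labelled HSC/MPP (haematopoietic stem cells and multipotent progenitors), with the genotype given as Mll3/4 deleted. Both the 4 H3K27ac libraries and the single input library carry this genotype. How the genes were deleted, the age of the mice and whether libraries came from separate animals are not given in the sources used here.

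The values come from 1 list of 22948 peaks that the authors gave for the H3K27ac libraries over input together. There is therefore no replicate error, no other genotype and no test in what follows, and every value is a description of this list. Each peak has a width and a signal value, the seventh column of the list, which in MACS2 output is the enrichment of the pileup over background at the summit. It also has a −log10 q, the authors' adjusted p-value on a negative log scale. The median peak of the list was 854 bp wide with a signal value of 3.27. In sorted cells measured in bulk, a weak peak in all cells and a strong peak in a few of them cannot be told apart. Total reads per library are unknown, so a gene without a peak is one where none passed the authors' calling and filtering at this depth.

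The pre-B-cell receptor is the checkpoint receptor of early B-cell development. It pairs an immunoglobulin heavy chain with a surrogate light chain, built from the VpreB protein (Vpreb1) and lambda5 (Igll1), and signals through the Ig-alpha and Ig-beta chains (Cd79a and Cd79b). Src-family kinases such as Lyn and Blk phosphorylate the tails of these chains, Syk docks there, and Syk then phosphorylates the adaptor BLNK, which brings phospholipase C gamma 2 (Plcg2) to its substrate. The surrogate light chain genes are classically transcribed in pro-B and pre-B cells, whereas Lyn, Syk and Plcg2 are used widely by myeloid and other blood cells as well.

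The sorted identity was checked on marker genes. A peak at an end was found for 4 of 6 sort and progenitor genes (36.2% of all protein-coding genes have one), namely Ptprc (signal value 10.8), Flt3 (6.58), Kit (5.66) and Slamf1 (3.21), but not for Ly6a, which encodes Sca1, or Cd34. Of 6 lineage genes described here, Hbb-bt (3.92) had one, and Ms4a1, Cd3e, Itgam, Ly6g and Klrb1c had none. Ms4a1 is the only B-lineage gene among these 6, so the list cannot show whether early B-lineage genes carried peaks. A peak at Dntt, which encodes the terminal transferase of V(D)J recombination, is described below. Whether cells already committed to the B lineage took part in the values below was not tested.

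Promoter windows of 300 bases, running from 250 bases before to 50 bases after a gene start, were found in the RefSeq table (GRCm38.p6) for 7 of the 10 genes. The windows of 5 of them are shown because each start lay inside an H3K27ac peak, and they include the surrogate light chain genes and the gene with the strongest peak of the group. Each reads 5′ to 3′ on the strand of the gene. Capitals mark matches, on either strand, to the letters CCCNNGGG (EBF), CAGCTG or CAGGTG (E-boxes of the E proteins), ATGCAAAT (the octamer), AGGAAG (ETS), TGTGGT (RUNX) and TGGGAA (Ikaros).
Vpreb1, minus strand, chr16:16869206-16869505: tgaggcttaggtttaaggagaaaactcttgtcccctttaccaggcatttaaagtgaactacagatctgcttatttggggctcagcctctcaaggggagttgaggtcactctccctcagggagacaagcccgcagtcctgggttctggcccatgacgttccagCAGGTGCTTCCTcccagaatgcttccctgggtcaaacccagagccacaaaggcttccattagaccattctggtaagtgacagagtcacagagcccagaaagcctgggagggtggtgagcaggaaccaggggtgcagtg
Igll1, minus strand, chr16:16863936-16864235: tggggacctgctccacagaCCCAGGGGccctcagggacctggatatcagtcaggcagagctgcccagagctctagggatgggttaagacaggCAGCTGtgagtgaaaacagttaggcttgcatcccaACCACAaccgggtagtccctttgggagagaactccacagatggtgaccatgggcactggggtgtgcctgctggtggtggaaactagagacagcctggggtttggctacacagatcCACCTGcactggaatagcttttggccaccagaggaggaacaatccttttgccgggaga
Vpreb3, plus strand, chr10:75948050-75948349: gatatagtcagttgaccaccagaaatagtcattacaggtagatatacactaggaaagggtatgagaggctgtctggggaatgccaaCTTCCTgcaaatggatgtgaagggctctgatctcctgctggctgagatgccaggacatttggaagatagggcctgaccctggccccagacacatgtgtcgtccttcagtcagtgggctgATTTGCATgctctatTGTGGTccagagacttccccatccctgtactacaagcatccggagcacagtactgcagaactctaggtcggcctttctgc
Cd79a, plus strand, chr7:24897247-24897546: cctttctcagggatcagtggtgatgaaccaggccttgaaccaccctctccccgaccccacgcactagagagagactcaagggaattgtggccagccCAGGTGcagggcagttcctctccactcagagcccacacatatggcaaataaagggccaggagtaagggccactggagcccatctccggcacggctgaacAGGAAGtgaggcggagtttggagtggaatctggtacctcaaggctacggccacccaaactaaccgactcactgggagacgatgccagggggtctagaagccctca
Blnk, minus strand, chr19:40994172-40994471: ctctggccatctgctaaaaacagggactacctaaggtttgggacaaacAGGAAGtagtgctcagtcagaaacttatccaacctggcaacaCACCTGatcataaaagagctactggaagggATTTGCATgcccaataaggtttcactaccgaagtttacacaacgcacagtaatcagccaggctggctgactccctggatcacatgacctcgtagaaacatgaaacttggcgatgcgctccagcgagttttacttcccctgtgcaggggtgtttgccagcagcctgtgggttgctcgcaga

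Of the 10 genes, 8 had an H3K27ac peak at an end, meaning a peak that overlapped the 1 kb on either side of either end of the gene. Among all protein-coding genes the share was 36.2%. All 5 receptor parts had such a peak. Of the 5 kinases and adaptors, Blnk, Lyn and Syk had one, whereas Blk and Plcg2 had none. The receptor parts are short genes, from 855 to 6634 bp, and the others run from 44351 to 136868 bp. Among protein-coding genes of at most 10 kb, 25.7% had a peak at an end, and among longer ones 42.2%.

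**Figure D1:**
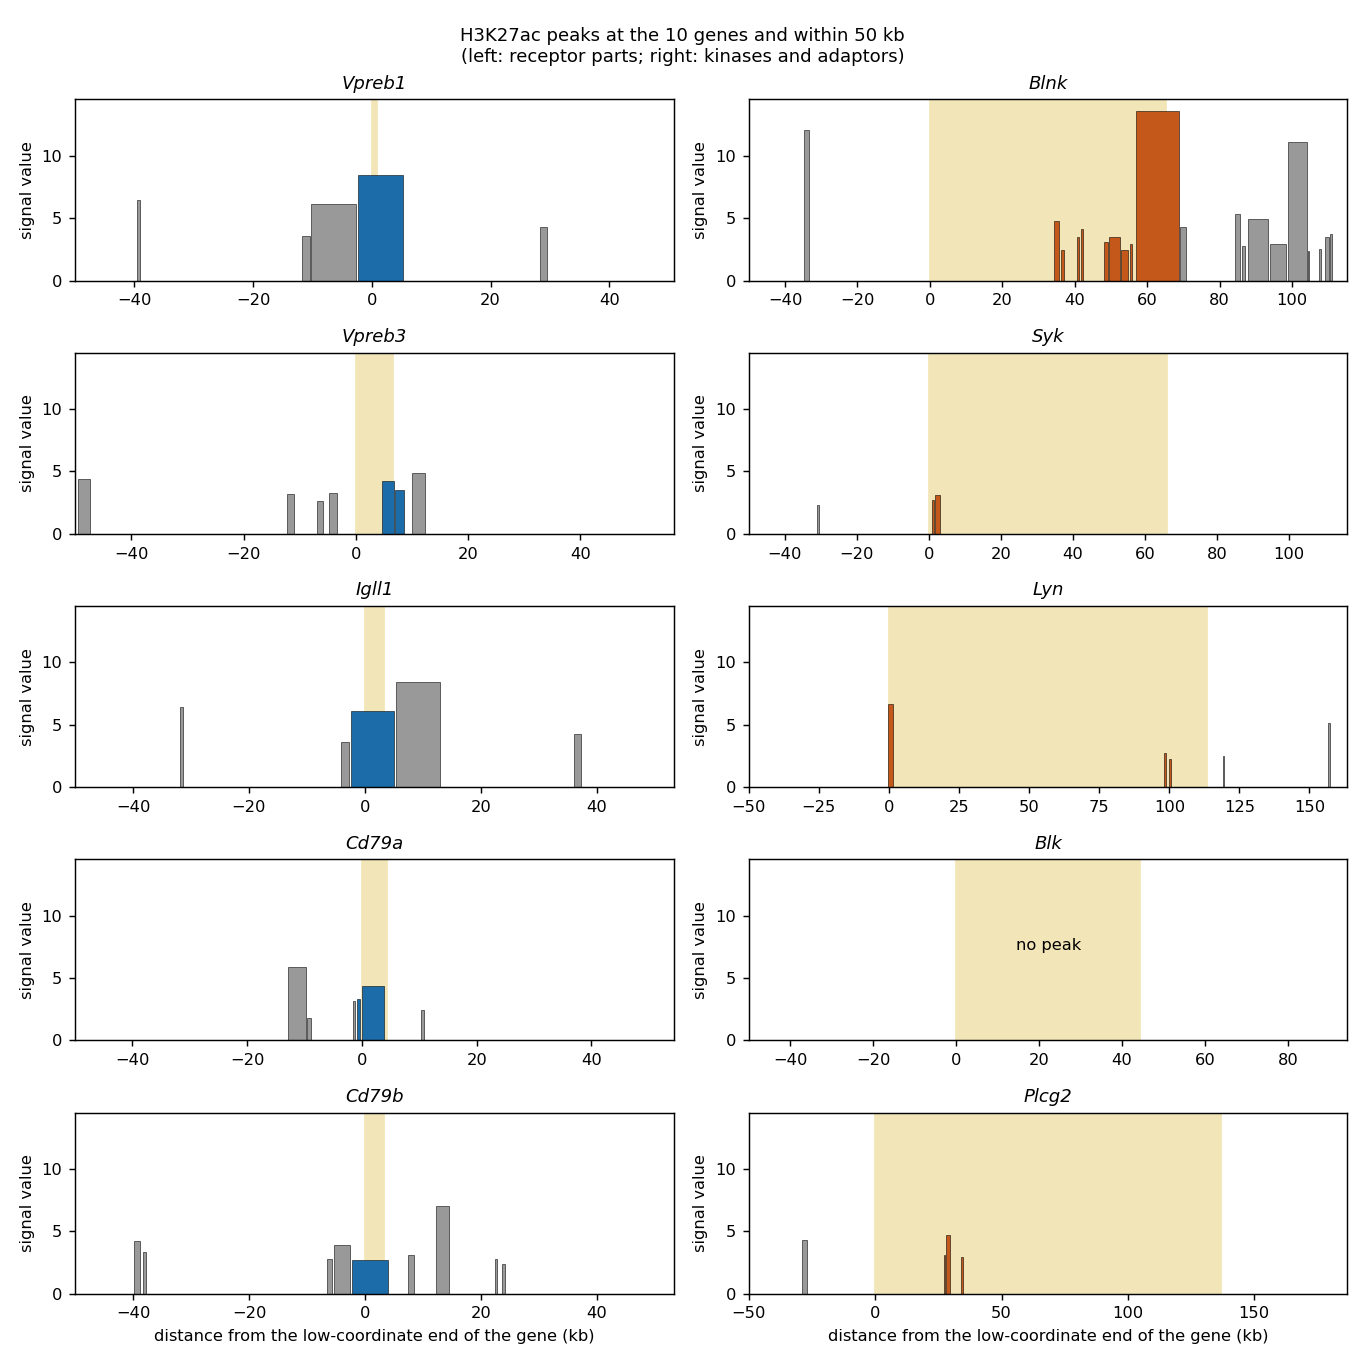
H3K27ac peaks at each gene and within 50 kb of it, drawn as bars whose width is the peak's width and whose height is its signal value, against the distance in kb from the low-coordinate end of the gene. The shaded span is the gene, coloured bars are peaks at its ends or in its body, and grey bars are distal peaks. In the left column the peaks span most or all of the gene for 4 of the 5 receptor parts and 30.0% of it for Vpreb3, the Blnk map is filled on its high-coordinate side, and the Blk map is empty.

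At the surrogate light chain genes the acetylation was broad. Vpreb1, which encodes the variable-like piece of the surrogate chain, lay whole inside a peak of 7554 bp (chr16:16866017-16873570) with a signal value of 8.42 and a −log10 q of 27.7. That peak also reached into Top3b, a topoisomerase gene, so its signal cannot be given to Vpreb1 alone. Igll1, encoding lambda5, the constant-like partner, lay whole inside a neighbouring peak of 7480 bp (chr16:16858204-16865683) with a signal value of 6.10 and a −log10 q of 19.9. A gap of only 333 bp separated both peaks. They ranked 75 and 78 by width in the whole list, but 1104 and 2927 by signal value. A further peak of 1402 bp (signal value 3.58) followed 210 bp beyond the Igll1 peak, so acetylation was called almost without a break from 16856592 to 16873570 on chromosome 16.

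The Vpreb1 peak did not have its highest point at the gene start. Its summit lay 1177 bp downstream of the start, 323 bp past the other end of this short gene. The Igll1 summit lay 294 bp downstream of its own start, close to the median of 281 bp over the 7957 promoter windows of protein-coding genes with a peak within 1 kb. Mouse carries a near copy of Vpreb1, Vpreb2, on the same chromosome. Over the 156 bases where their promoter windows could be laid on each other without gaps, 153 were identical. At Vpreb2, a gene named here after its value was seen, the peak was much smaller, 690 bp wide with a signal value of 2.59 (chr16:17979442-17980131). How reads that fit both copies were placed is not given in the sources used here, so values at either copy are uncertain.

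Vpreb3, whose product associates with nascent heavy chains in the cell, had weaker peaks. The stronger of them (chr10:75947667-75949744, 2078 bp) had a signal value of 4.23 and lay at the high-coordinate end of this plus-strand gene. It covered the start of the promoter window, an internal start 5276 bp from the low-coordinate end of the annotated gene, with the summit 677 bp downstream of it. The low-coordinate end had no peak within 1 kb, and the nearest edge of a peak was 3263 bp away. The other, 302 bp further on, was 1539 bp wide with a signal value of 3.49. Peaks covered 30.0% of the gene, the smallest share among the receptor parts.

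The signalling chains differed from each other in shape. Cd79a, encoding Ig-alpha, had a peak of 3852 bp (chr7:24897497-24901348, signal value 4.40, −log10 q 8.62) that began at the first annotated base of the gene and covered 88.3% of it. A smaller peak of 519 bp (signal value 3.29) lay on the upstream side. The 270 bases between them, chr7:24897227-24897496, carried no peak, and all 250 bases printed above that precede the Cd79a start fall in this gap.

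Cd79b, encoding Ig-beta, lay whole inside a single peak of 6112 bp (chr11:106309153-106315264) whose signal value was only 2.69, with −log10 q of 3.03. By width this was higher than 99.0% of the strongest peaks at the ends of other genes, and by signal value higher than only 5.92%. The list held 154 peaks at least this wide, and the Cd79b peak was the only one of them with a signal value as low. Among the 80 genes whose strongest end peak was at least as wide, the next lowest signal value was 4.15 and the median 9.06. A stronger peak stood nearby: 2207 bp with a signal value of 7.06 (chr11:106323641-106325847), with its summit 11016 bp from Cd79b and inside Scn4a, a muscle sodium channel gene.

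Vpreb1, Igll1 and Cd79b each lay whole inside 1 peak, whereas none of the 5 kinases and adaptors did. Over all protein-coding genes this was so for 60, or 0.274%, and all of those were among the genes of at most 10 kb, where the share was 0.757%. The kinases and adaptors are all longer than the longest gene so covered, so the like comparison for the receptor parts is with short genes.

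**Figure D2:**
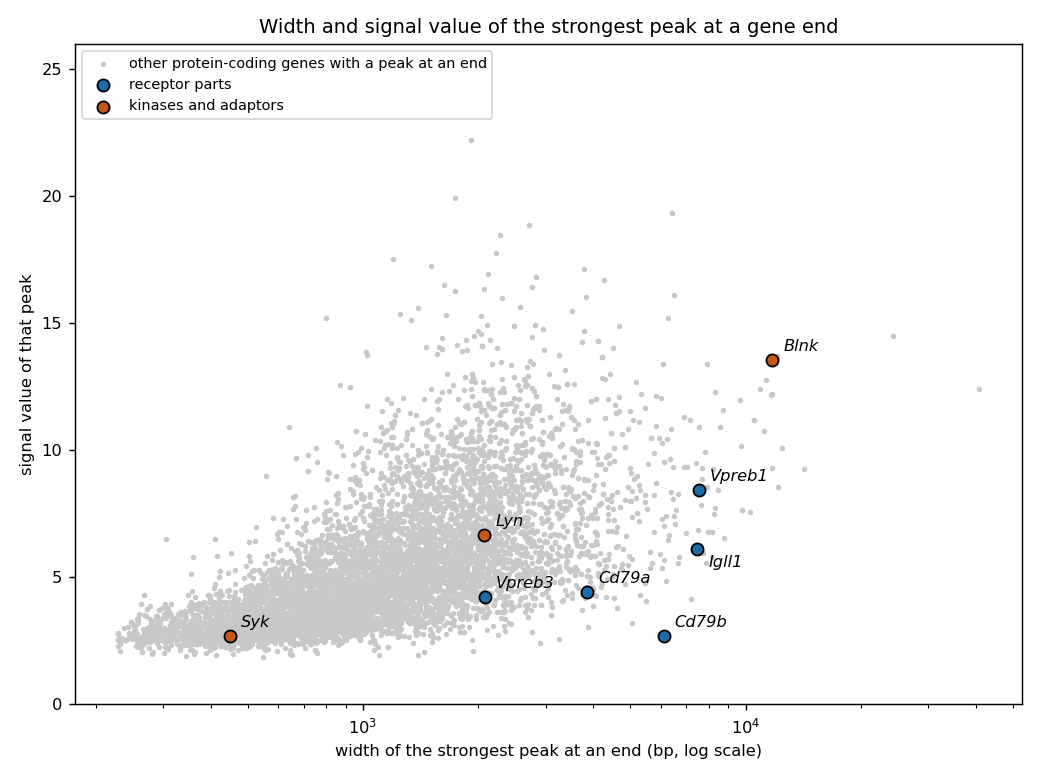
Width in bp, on a log scale, against signal value of the strongest peak at an end, with 1 grey point for each protein-coding gene that has one and coloured, labelled points for the 8 members that do. Vpreb1, Igll1, Cd79a and Cd79b lie to the right of most genes of their signal value, Cd79b at 6112 bp and 2.69 stands apart at the lower right, and Syk at 449 bp lies at the lower left.

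Blnk, the adaptor that links Syk to phospholipase C gamma 2, had the strongest peak of the group. It was 11747 bp wide (chr19:40985914-40997660), with a signal value of 13.6 and a −log10 q of 56.5. Of the 7929 genes acetylated at an end in this way, 72 had a stronger peak, and the Blnk peak ranked 12 by width in the whole list. It covered the start of the gene, and its summit lay 1230 bp downstream. Inside the gene, 9 peaks had their summit in the body, counting this one, which is 1.38 per 10 kb against 0.105 per 10 kb over all protein-coding genes. The other 8 had signal values from 2.44 to 4.77, all with summits within 30568 bp of the start. The weakest of them, with signal values of 2.45 and 2.44, had −log10 q of 0.799 and 1.10, q-values above 0.05. The farthest summit lay 34726 bp from the low-coordinate end, and no peak was called between it and that end of the 65295 bp gene.

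On the high-coordinate side, Blnk is followed by Dntt, which encodes the terminal transferase of V(D)J recombination. A peak of 1528 bp with a signal value of 4.28 stood beside Blnk, and a stretch of 13491 bp without a peak followed it. Of the 11 distal peaks within 50 kb of Blnk, 9 lay nearer to an end of Dntt than of Blnk or inside Dntt. The strongest of these was 5263 bp wide with a signal value of 11.1 (chr19:41027718-41032980) and sat at the Dntt end facing Blnk. Between that stretch and Dntt, the peaks with the highest signal values were one of 1609 bp with 5.32 and one of 5586 bp with 4.96. The others there were 4418 bp wide with a signal value of 2.91 and 702 bp wide with 2.78. On the other side of Blnk, the peak with a signal value of 12.1 was at Zfp518a, a zinc finger gene. Peaks covered 26.9% of Blnk and its 50 kb flanks, more than for 99.9% of protein-coding genes, whose median was 1.18%.

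Lyn, the Src-family kinase that both starts and restrains receptor signalling, had a compact peak at its low-coordinate end (chr4:3677564-3679640). It was 2077 bp wide with a signal value of 6.67, above 75.8% of all genes that have an end peak, and a −log10 q of 17.1. In the rest of its 113545 bp there were only weak peaks of 517 and 740 bp, with signal values of 2.72 and 2.27, both near the far end. The second of these had −log10 q of 0.518, a q-value well above 0.05.

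Syk, the kinase that docks on the phosphorylated receptor chains, had a narrow and weak peak at an end. It was 449 bp wide with a signal value of 2.69 (chr13:52583531-52583979), stronger than only 5.94% of such peaks in other genes, and its summit lay 1318 bp inside the gene. A second peak of 1503 bp with a signal value of 3.15 followed, and with these 2 peaks in its body Syk had more than 91.3% of all protein-coding genes. The nearest annotated start lay 94 bp outside the first peak and 827 bp inside the annotated gene. Within 1 kb of that start the second peak was the stronger, so the end peak is the lesser of the pair. Cd79b and Syk thus had the same signal value at their ends, to 2 decimals, in peaks of 6112 and 449 bp.

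Plcg2, the phospholipase at the end of the proximal cascade, had no peak at an end. Its 3 peaks lay deep in the gene, with summits 27497, 29006 and 34517 bp after the start and signal values of 3.12, 4.74 and 2.94. The nearest edge of any peak was 27023 bp from the start. Blk, a Src-family kinase found mainly in the B lineage, had no peak at its ends, in its 44351 bp body or within 50 kb.

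Set side by side, the strongest end peaks of the receptor parts had signal values of 2.69, 4.23, 4.40, 6.10 and 8.42 (median 4.40) and those of the kinases and adaptors 2.69, 6.67 and 13.6 (median 6.67, over the 3 genes with one). Both ranges overlap, and the median over all genes with such a peak was 4.71. With Blk and Plcg2 counted at 0, the median of the kinases and adaptors was 2.69, so the order of the medians turned with the treatment of genes without a peak. Widths were 2078 to 7554 bp (median 6112) for the receptor parts and 449, 2077 and 11747 bp for the others, against a median of 1109 bp over all genes with an end peak. All 5 receptor parts and 2 of the 3 others were wider than that median, while Cd79a, Cd79b, Vpreb3 and Syk fell below the median of all genes in signal value.

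In the gene bodies the classes differed in the space they offer. The receptor parts had no peak with its summit in the body away from the ends, which in genes this short leaves little room. The kinases and adaptors held 16, of which Blnk alone held 9. Of the 10 genes, 4 had at least 1, against 18.4% of all protein-coding genes and 3776 of the 13961 longer than 10 kb. Without Blnk, the other 4 kinases and adaptors had 0.194 body peaks per 10 kb, and all protein-coding genes longer than 10 kb had 0.105. The summits of 2 end peaks, those of Blnk and Syk, also lay in the body and were counted in both places.

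Distal peaks, with a summit outside the gene and its end windows but within 50 kb, were found for 9 of the 10 genes, against 57.9% of all protein-coding genes. The number was 11 at Blnk, 8 at Cd79b, 5 at Vpreb3, 4 each at Vpreb1, Igll1 and Cd79a, 2 at Lyn, 1 each at Syk and Plcg2 and 0 at Blk. The median over all genes was 1. Vpreb1 and Igll1 share 3 of theirs, and each has the other's end peak among its own. In all, 37 distinct distal peaks were counted, and in 35 of the 40 pairs of a gene and a distal peak another gene had the nearer end. The member had the nearest end in the other 5, 1 each at Igll1, Cd79a, Cd79b, Blnk and Lyn. Nearness alone does not assign a peak to a gene. Around the receptor parts, peaks covered 8.48% to 18.0% of the gene and its 50 kb flanks. Around Lyn, Plcg2 and Syk the share was 2.11%, 1.95% and 1.57%, higher than for 64.8%, 62.6% and 56.8% of all genes, and around Blk it was 0.

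CpG dinucleotides were then counted in the promoter windows, since promoters rich in them are often acetylated whatever the cell type. Over all 21263 promoter windows of protein-coding genes, 37.4% had a peak within 1 kb of the start. The share was 8.74% of windows with 0 to 6 CpG dinucleotides, 44.3% with 7 to 21 and 62.9% with 22 to 67. Vpreb1 and Igll1 had 2 CpGs each and Vpreb3 had 3, and each had a peak over the start of its window, which for Vpreb3 is a start inside the annotated gene. Blnk, with 7, and Cd79a, with 8, stood at the lower edge of the middle class and also had one. Plcg2, with 21 CpGs, had no peak, and the CpG-richest window, that of Syk with 31, had a peak with a signal value of only 3.15 within 1 kb. A second Syk window, with 2 CpGs, had none.

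**Figure D3:**
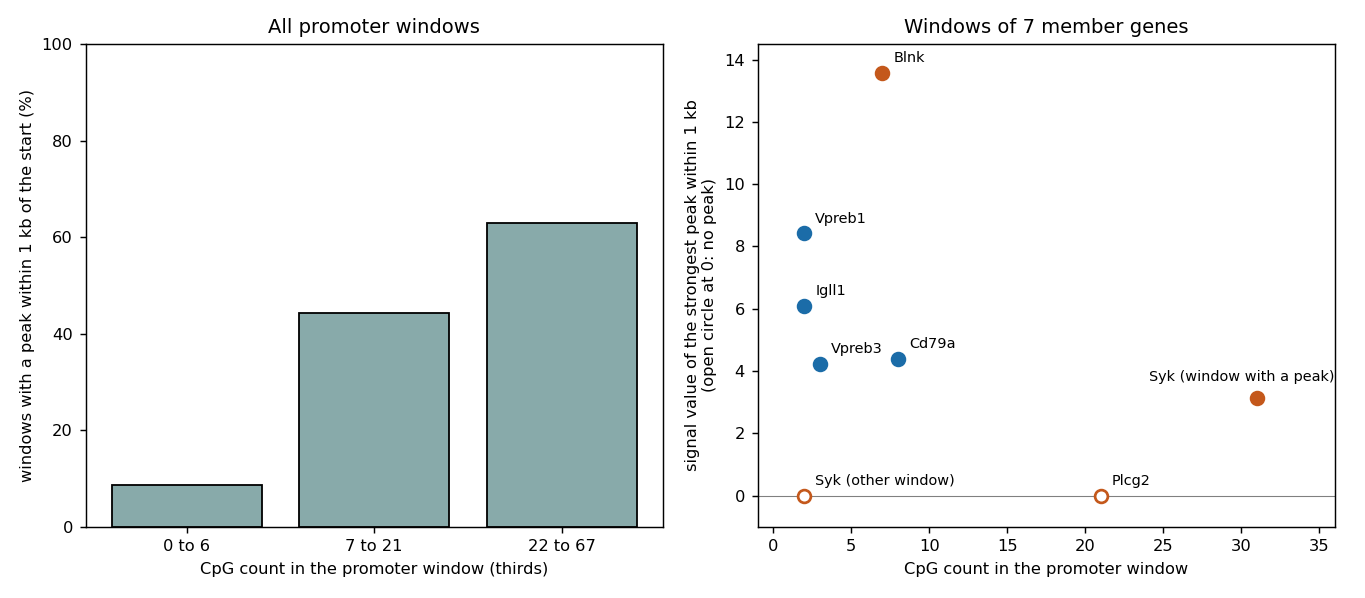
Left, the percentage of all promoter windows of protein-coding genes with a peak within 1 kb of the start, in 3 classes of CpG count. Right, CpG count against the signal value of the strongest peak within 1 kb of the start for the 8 windows of 7 members, blue for receptor parts and orange for kinases and adaptors, with an open circle at 0 for no peak. The bars rise from 8.74% to 62.9%, while the members with the highest signal values, Blnk and Vpreb1, sit at 7 and 2 CpGs.

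In 6 of the 8 member windows a peak lay within 1 kb, and in all 6 the strongest summit was downstream of the start. Over all promoter windows with a peak, 68.8% had it there. The start itself lay inside a peak for Vpreb1, Igll1, Vpreb3, Cd79a and Blnk, but not for Syk, with the internal start taken for Vpreb3. A start lay inside a peak for 50.8% of all windows with a peak.

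The letters of motifs of blood transcription factors were then sought in these windows, as a description of the sequence and not of binding. CAGGTG was present in the windows of 6 of the 7 genes, all but Vpreb3, against 19.7% of all promoter windows. It lay 88 bases before the start in Vpreb1, with the ETS letters directly beside it at 82 bases, and 160, 154 and 147 bases before it in Blnk, Cd79a and Plcg2. Plcg2 shows that these letters were also present without a peak. The octamer was found in Blnk, 130 bases before the start, and in Vpreb3, 45 bases before it, whereas 1.66% of all windows hold it. In Vpreb3 the RUNX letters followed at 30 bases.

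The ETS letters were found in Vpreb1, Vpreb3, Cd79a and Blnk, and in 34.4% of all windows. CCCNNGGG occurred only in Igll1, 231 bases before its start, against 15.6% of all windows, and CAGCTG in Igll1 and Syk, against 15.6%. The RUNX letters were in Igll1 and Vpreb3 (14.97% of all windows), and TGGGAA in Plcg2 only (24.5%). No match overlapped a match to another motif. A motif of 6 letters is found often by its length alone, and no match says only that these letters are not in the window.

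The wider pathway was taken from lists of genes. Of 18 downstream genes, 12 had a peak at an end, against 36.2% of all protein-coding genes. All 18 are longer than 10 kb, and among genes of that length the share was 42.2%. Their median signal value was 4.82, against 4.71 for all genes with one, and their median width 1125 bp. The strongest were at Dapp1 (7.13), a phosphoinositide-binding adaptor, at Fyn (5.97), a Src-family kinase shared with T cells, and at Btk (5.59), the kinase that acts beside Syk on phospholipase C gamma 2. Fgr, a Src-family kinase of myeloid cells, had no peak at an end, in its body or within 50 kb.

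Of the 6 inhibitors, 3 had a peak at an end, a count that in so short a list lies near the 36.2% of all protein-coding genes. Inpp5d, encoding the lipid phosphatase SHIP1, had a signal value of 12.0 in a peak of 9669 bp and 10 peaks in its body. Cd72, an inhibitory co-receptor, had a signal value of 4.41 and Cbl, a ubiquitin ligase, one of 3.36. The other inhibitors, Ptpn6, Cd22 and Fcgr2b, had none.

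The counterparts of these genes in the T-cell receptor had a peak at an end in 3 of 10, near the 36.2% of all protein-coding genes. Zap70, the relative of Syk in T cells, had a signal value of 7.002 in a peak of 6132 bp, against 2.69 and 449 bp for Syk. Within 1 kb of an annotated start, the strongest Syk peak had 3.15 in 1503 bp. Cd3d had a signal value of 4.90 and Plcg1, the relative of Plcg2, one of 3.12. None was found at the ends of Ptcra, which encodes the pre-T-cell receptor chain, Cd3e, Cd3g, Cd247, Lck, Lat or Lcp2. Lcp2 is the relative of Blnk. In the pair of adaptors the B-cell gene had the peak, and in the pair of docking kinases the T-cell gene had the stronger and wider one. In the pair of phospholipases Plcg1 had a peak at an end and Plcg2 had none.

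**Figure D4:**
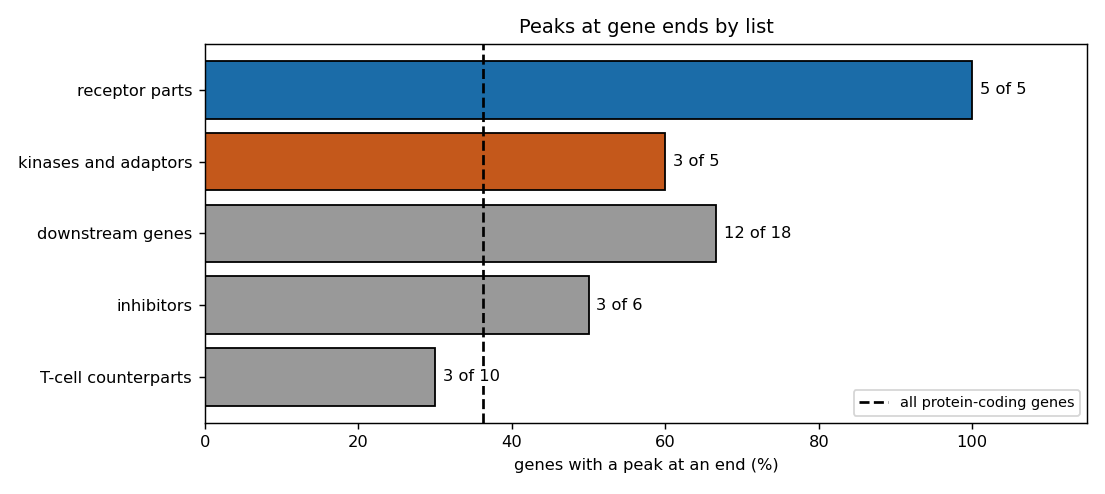
Percentage of the genes of each list that had an H3K27ac peak at an end, with the count beside each bar and the share of all protein-coding genes, 36.2%, as a dashed line. The receptor parts reach 5 of 5, the kinases and adaptors 3 of 5 and the downstream genes 12 of 18, and the T-cell counterparts, at 3 of 10, lie near the line. The line takes no account of gene length: the share was 25.7% among genes of at most 10 kb and 42.2% among longer ones.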

How the data were processed

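Per the labels, H3K27ac ChIPmentation was done on 4 libraries, with 1 input. The submitters' processing notes name BWA, MACS2 and the build mm10, without versions or roles. The authors deposited 1 peak list for the libraries together, without a header. Its score, its signal value, and its −log10 p-values and −log10 q-values are each peak's own, as deposited by the authors. By its name the list is an optimal set of overlapping peaks, so peaks may have been kept or dropped by overlap between peak calls. That rule, total reads and thresholds are not given in the sources used here. Where a number of reads would limit precision, none can be stated.

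Coordinates were read as GRCm38 and are 1-based. Gene positions and promoter windows came from RefSeq tables (GRCm38.p6), restricted to protein-coding genes. All 723 pairs of overlapping windows on opposite strands read as reverse complements. Peaks were assigned to ends by overlap and to bodies and distal space by summit, in Python 3.11.15 with pandas 2.3.3. The assignment was tested on simulated peaks. The genes, lists and motifs were chosen with earlier results of these data known. Named were all 10 members, the 3 strongest genes of each further list and, in lists of at most 11, those without a peak. Slamf1, the remaining sort gene with a peak at an end, was named as well. Fgr and Vpreb2 were named after their values were seen. Of the further lists, 2 downstream genes, 1 T-cell counterpart and 1 lineage marker are not reported here and were left out of the counts. Alternatives were stricter lists, wider windows, assignment by summit and merged peaks. No comparison between samples was possible, so no test was run.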

Additional observations from a re-analysis of the deposited data

How the results depend on the processing

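Of 24 recomputed values, 16 kept their direction and stayed within 1.5 times the value reported, and 8 moved further. With −log10 q of at least 5, the body peaks of the members fell from 16 to 4, the distal peaks from 37 to 16 and the other pathway genes with a peak at an end from 18 to 11. The median signal value of the receptor parts minus that of the kinases and adaptors, over genes with a peak, went from -2.27 to -4.87, and with genes without a peak taken as 0 from 1.71 to 4.40. Merging peaks within 1 kb left 9 body and 23 distal peaks and raised the median width at the ends from 4982 to 7884 bp. The cause was fewer or joined peaks, by construction. Members with a peak at an end numbered 8 with a q-value of at most 0.05, against 34.4% of all genes, and 8 with 2.5 kb, against 39.3%. They numbered 6 with −log10 q of at least 5 or a signal value of at least 4, which left out Cd79b and Syk, against 24.0% and 23.2% of all genes. By summit they numbered 6, which left out Blnk and Syk, against 33.3%. Of the 59 peaks described, 10 had a q-value above 0.05. No paired analysis was possible because only 1 pooled list was used. For the same reason no library could be left out.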
